A study of Homo sapiens with 4 samples.

Results

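Of 9 long noncoding RNAs that are known regulators (MALAT1, NEAT1, H19, MEG3, HOTAIR, GAS5, PVT1, TUG1 and DANCR), 3 could be read on their own in osteosarcoma (OS) cells. A probe set, the group of array probes that gives 1 signal, was used for a long noncoding RNA only where the platform annotation named that RNA and no other gene. This left 4 probe sets (MALAT1 with 2, HOTAIR with 1 and TUG1 with 1) of 36176 with a single gene symbol and 135750 on the array. The other 6 RNAs were found only on 7 probe sets whose annotation also names microRNAs or small nucleolar RNAs, and those are described apart under their joint names.

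The 4 arrays covered 4 groups, with 1 array each: Saos-2 cells transfected with sh-circ_0000073, Saos-2 cells transfected with sh-NC, MG-63 cells transfected with sh-circ_0000073 and MG-63 cells transfected with sh-NC. Saos-2 and MG-63 are established human OS lines. The short hairpin RNA sh-circ_0000073 was designed against the back-splice junction of the circular RNA hsa_circ_0000073, and sh-NC is the control hairpin. The sample titles write the same reagents as si-hsa_circ_0000073 and si-NC. The comparison of hairpins asks what was altered once the circular RNA was silenced, and a measure of the circle itself is not given here, since its junction was not matched to a probe set. With 1 array per group there is no p-value within a line, and the labels name no replicate cultures of a group. Each line is a single lineage, so a line difference describes these cultures and not OS tumors.

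Long noncoding RNAs act without being translated. MALAT1 is retained in nuclear speckles, the stores of splicing factors, while NEAT1 is the scaffold on which paraspeckle proteins assemble. H19 and MEG3 are imprinted transcripts read from the maternal copy, HOTAIR is transcribed within the HOXC cluster and binds the chromatin complexes PRC2 and LSD1, and GAS5 hosts small nucleolar RNAs and can occupy the glucocorticoid receptor. PVT1 lies beside MYC, DANCR is known for holding back osteoblast differentiation, and TUG1 was first described in retinal development.

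The sequences that the study lists for its hairpins are shown because the comparisons of sh-circ_0000073 with sh-NC rest on such designs. Each is listed as 1 strand, without the second arm of a hairpin. The labels do not state which numbered design was used for the arrays. The design carried forward by the study and the control are written 5′ to 3′ as the study lists them, with the TT end in capitals.
sh-hsa_circ_0000073-1: gcugcaaaggggcauaaggaaTT
sh-NC: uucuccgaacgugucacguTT

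All values are log2 signals, on which a difference of 1 is a doubling, and signals of different probe sets are not set against each other because probes differ in how well they bind. The array medians were 3.75, 3.74, 3.75 and 3.74 in Saos-2 sh-circ_0000073, Saos-2 sh-NC, MG-63 sh-circ_0000073 and MG-63 sh-NC, so a signal near those values can hardly be told from an undetected RNA. RB1, the retinoblastoma tumor suppressor that Saos-2 is known to lack, read 5.78 and 6.17 in Saos-2 cells against 11.91 and 11.90 in MG-63 cells. ALPL, the bone alkaline phosphatase, read 15.81 and 16.57 in Saos-2 cells against 3.97 and 3.89 in MG-63 cells. Of the osteoblast markers, RUNX2, SP7 and IBSP were also higher in Saos-2 (limma), COL1A1 read 10.03 or more on every array, and SPP1 was near the array medians on all of them. Of the markers of other cell types, PTPRC, CD3E, CDH1, PECAM1, VWF and CDH5 lay between 2.99 and 5.12, whereas the lysosomal gene CD68 read 5.92 and 4.92 in Saos-2 cells against 13.47 and 14.23 in MG-63 cells. EPCAM read 9.59 and 9.45 in Saos-2 cells against 3.43 and 3.26 in MG-63 cells, and KRT18 lay between 6.14 and 7.48. Their part in the line differences was not tested. In such bulk samples fewer cells with an RNA and less RNA per cell cannot be told apart.

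Both probe sets annotated to MALAT1 were lower in Saos-2 cells than in MG-63 cells, and the hairpin hardly moved them in either line. MALAT1 probe set 1 read 18.37 with sh-circ_0000073 and 18.31 with sh-NC in Saos-2 cells, and 19.15 with sh-circ_0000073 and 19.15 with sh-NC in MG-63 cells. The Saos-2 arrays both lay below the MG-63 arrays, with 0.78 between the nearest of them. The Saos-2 minus MG-63 difference was −0.81 (SE 0.123), that is 1.75-fold lower in Saos-2, with an adjusted p of 0.00214 from limma. These signals sit close to the highest on any array, 19.89 to 19.93. Under quantile normalization the difference was −0.456 (adjusted p = 0.0240, limma), and without either MG-63 array, in a fit with no hairpin term, the adjusted p was 0.0569 or 0.0572.

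MALAT1 probe set 2 read 10.22 with sh-circ_0000073 and 9.96 with sh-NC in Saos-2 cells, against 13.38 with sh-circ_0000073 and 13.16 with sh-NC in MG-63 cells. The lines were again fully apart, by 2.94 at the nearest. The difference was −3.18 (SE 0.243), or 9.06-fold lower in Saos-2 (adjusted p = 7.15e-05, limma). Both probe sets with the MALAT1 symbol thus pointed the same way but differed in size. The second carries the MALAT1 symbol without a gene identifier, and RefSeq lists an antisense gene, TALAM1, at the same locus. The platform numbers probe set 2 next to LTBP3 and apart from probe set 1 and the NEAT1 probe set. It may therefore read the antisense RNA, which was not tested, and it cannot be taken as a second reading of MALAT1.

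HOTAIR and TUG1 did not pass the test between the lines. HOTAIR read 3.56 with sh-circ_0000073 and 3.21 with sh-NC in Saos-2 cells, against 3.62 with sh-circ_0000073 and 4.21 with sh-NC in MG-63 cells. All of these are near the array medians, and although both Saos-2 values lay below both MG-63 values, the gap was only 0.06 and the difference of −0.53 (SE 0.259) had an adjusted p of 0.200 in limma. TUG1 read 13.12 with sh-circ_0000073 and 12.19 with sh-NC in Saos-2 cells, against 12.90 with sh-circ_0000073 and 13.08 with sh-NC in MG-63 cells. Its arrays overlapped between the lines, and the difference was −0.335 (SE 0.302, adjusted p = 0.507, limma), turning to 0.13 without the Saos-2 sh-NC array. The RefSeq table classes TUG1 as protein coding, although it is best known as a noncoding RNA.

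Between the lines, therefore, 2 of the 4 probe sets, both annotated to MALAT1, were called lower in Saos-2 and 0 higher. Over all probe sets with 1 symbol 13.7% were called lower and 11.9% higher, and among those with a mean log2 signal of at least 6 these shares were 29.2% and 25.9%. In 3 of the 4 probe sets every Saos-2 array lay below every MG-63 array, which held for 32.9% of all probe sets with 1 symbol, and 59.0% did not overlap in either direction. The median line difference was −0.67 over the 4 probe sets and −0.05 over all. These p-values rest on 4 arrays, with 1 residual degree of freedom before limma pools the spread over probe sets. With line and hairpin both in the fit, that residual is the difference of the hairpin change between the lines. Spread between replicate arrays or cultures does not enter it.

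**Figure D1:**
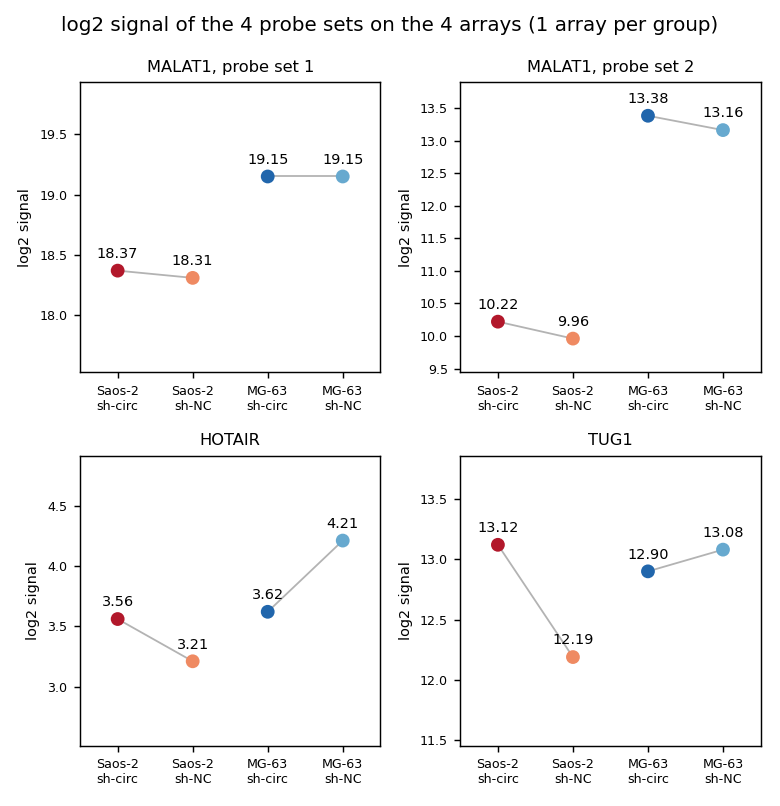
Log2 signal (vertical axis) of the 4 probe sets on each array, with sh-circ_0000073 left of sh-NC and Saos-2 left of MG-63; each point is 1 array. Both probe sets annotated to MALAT1 are lower in Saos-2, HOTAIR stays between 3.21 and 4.21, and the lowest TUG1 signal is 12.19 in Saos-2 cells with sh-NC.

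The response to the hairpin was small in MALAT1 and opposite between the lines in TUG1 and HOTAIR. MALAT1 probe set 1 changed by 0.06 in Saos-2 cells and by 0.00 in MG-63 cells, and probe set 2 by 0.26 in Saos-2 cells and by 0.22 in MG-63 cells. TUG1 was 1.91-fold higher with sh-circ_0000073 in Saos-2 cells (0.93), while in MG-63 cells it differed by −0.18. The single array that set TUG1 apart was Saos-2 sh-NC, since the other 3 lay between 12.90 and 13.12. HOTAIR differed by 0.35 in Saos-2 cells and by −0.59 in MG-63 cells, the second being 1.51-fold lower, at a signal where it can hardly be told from an undetected RNA.

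At the size of 1.5-fold that the study's methods used, 1 of the 4 probe sets (TUG1) was higher and 0 lower with sh-circ_0000073 in Saos-2 cells, where 8.91% of all probe sets with 1 symbol were higher and 5.22% lower. In MG-63 cells 0 were higher and 1 (HOTAIR) lower, where 8.93% of all were higher and 7.18% lower. Among probe sets with a mean log2 signal of at least 6, to which TUG1 belongs and HOTAIR does not, 15.7% were higher and 8.45% lower in Saos-2 cells, and 14.0% were higher and 11.4% lower in MG-63 cells. The median change over the 4 probe sets was 0.305 in Saos-2 and −0.09 in MG-63, against 0.06 and 0.02 over all.

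Over both lines together none of the 4 was called for the hairpin by limma. The mean change was 0.03 (SE 0.123, adjusted p = 0.982) for MALAT1 probe set 1 and 0.24 (SE 0.243, adjusted p = 0.877) for probe set 2. It was 0.375 (SE 0.302, adjusted p = 0.835) for TUG1 and −0.12 (SE 0.259, adjusted p = 0.962) for HOTAIR, also by limma. In the same limma fit 0 of 36176 probe sets (0.0%) passed an adjusted p of 0.05, and 2628 (7.26%) had an unadjusted p under 0.05.

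**Figure D2:**
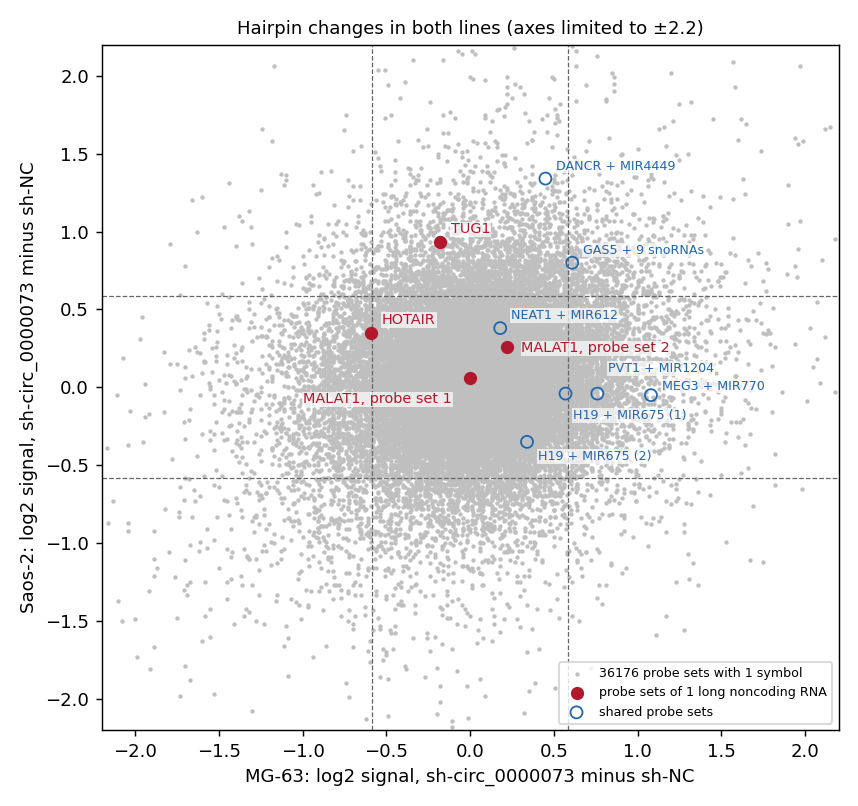
Hairpin change in log2 signal, sh-circ_0000073 minus sh-NC, in MG-63 (horizontal axis) and Saos-2 (vertical axis); gray points are the 36176 probe sets with 1 symbol, red points the 4 of MALAT1, HOTAIR and TUG1, blue circles the 7 shared probe sets, and dashed lines mark 1.5-fold. TUG1 lies above the upper dashed line for Saos-2 (0.93), and both MALAT1 probe sets lie near the center.

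The start regions of TUG1 and MALAT1 are shown because these are the RNAs with high signals, one with a Saos-2 array apart and the other with a line difference. Each runs from 250 bases before to 50 after a RefSeq start on GRCh38.p14, plus strand, with matches to the searched motifs in capitals. TUG1 is at chr22:30969015-30969314, and MALAT1 has a start at chr11:65497488-65497787 and another at chr11:65498795-65499094.
TUG1: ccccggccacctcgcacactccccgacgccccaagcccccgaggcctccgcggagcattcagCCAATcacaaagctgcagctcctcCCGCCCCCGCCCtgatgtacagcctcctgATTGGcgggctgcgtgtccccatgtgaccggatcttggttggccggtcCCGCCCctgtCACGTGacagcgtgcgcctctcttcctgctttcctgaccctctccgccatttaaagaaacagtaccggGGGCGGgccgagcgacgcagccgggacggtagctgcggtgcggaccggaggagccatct
MALAT1, start 1: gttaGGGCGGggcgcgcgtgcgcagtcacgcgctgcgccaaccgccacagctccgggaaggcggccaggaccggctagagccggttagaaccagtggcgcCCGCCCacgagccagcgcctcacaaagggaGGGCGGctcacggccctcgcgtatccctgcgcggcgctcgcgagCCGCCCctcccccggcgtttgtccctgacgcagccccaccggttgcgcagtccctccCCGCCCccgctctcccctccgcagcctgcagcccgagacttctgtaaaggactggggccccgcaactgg
MALAT1, start 2: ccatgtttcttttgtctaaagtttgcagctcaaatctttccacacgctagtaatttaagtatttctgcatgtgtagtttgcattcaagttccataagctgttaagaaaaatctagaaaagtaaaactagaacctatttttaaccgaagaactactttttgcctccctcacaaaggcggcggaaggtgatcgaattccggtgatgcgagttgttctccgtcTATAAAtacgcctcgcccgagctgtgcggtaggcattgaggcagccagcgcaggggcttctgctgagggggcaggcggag

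The motifs, searched on both strands, were the E-box CACGTG, the GC box GGGCGG, the CCAAT box, the TATA box TATAAA and the AP-1 site TGAGTCA. The TUG1 region held 1 E-box, 4 GC boxes and 2 CCAAT boxes, MALAT1 start 1 held 5 GC boxes, and MALAT1 start 2 held 1 TATA box. Of 35116 RefSeq start regions of this length, 7.26% held the E-box, 45.0% the GC box, 34.6% CCAAT, 11.5% TATAAA and 4.95% TGAGTCA. The regions were 67.7% G and C at TUG1, 73.7% at MALAT1 start 1 and 46.0% at start 2. The array gives no value for a single start, so none of these matches can be tied to a signal.

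On the 7 shared probe sets the signal belongs to the joint annotation and cannot be given to the long noncoding RNA alone. The microRNAs named with H19, MEG3 and DANCR lie inside those genes on GRCh38.p14. Their mature forms are shown, with bases 2 to 8 (the seed) in capitals, because these microRNAs are named in the joint annotations described next. The array gives no separate value for the mature forms. No 2 of them have the same seed.
hsa-miR-675-5p, in H19: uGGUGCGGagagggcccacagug
hsa-miR-675-3p, in H19: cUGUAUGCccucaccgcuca
hsa-miR-770-5p, in MEG3: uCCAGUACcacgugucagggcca
hsa-miR-4449, in DANCR: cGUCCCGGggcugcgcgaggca

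NEAT1, GAS5, DANCR and PVT1, each under its joint annotation, were lower in Saos-2 cells. The probe set named for NEAT1 and MIR612 read 11.43 with sh-circ_0000073 and 11.05 with sh-NC in Saos-2 cells, against 16.15 with sh-circ_0000073 and 15.97 with sh-NC in MG-63 cells, a difference of −4.82 or 28.2-fold (adjusted p = 0.000332, limma over all 135750 probe sets). This is the widest gap between the lines among the 11 probe sets that name any of the 9 RNAs. The probe set of GAS5 and 9 small nucleolar RNAs read 15.07 with sh-circ_0000073 and 14.27 with sh-NC in Saos-2 cells, against 16.27 with sh-circ_0000073 and 15.66 with sh-NC in MG-63 cells (2.45-fold lower in Saos-2, adjusted p = 0.00682, limma). That of DANCR and MIR4449 read 11.06 with sh-circ_0000073 and 9.72 with sh-NC in Saos-2 cells, against 13.33 with sh-circ_0000073 and 12.88 with sh-NC in MG-63 cells (6.57-fold lower in Saos-2, adjusted p = 0.00504, limma). That of PVT1 and MIR1204 read 9.39 with sh-circ_0000073 and 9.43 with sh-NC in Saos-2 cells, against 12.27 with sh-circ_0000073 and 11.51 with sh-NC in MG-63 cells (5.58-fold lower in Saos-2, adjusted p = 0.00683, limma). Every Saos-2 array lay below every MG-63 array on each of these probe sets, which held for 32.9% of all probe sets with a single gene symbol. Over all 135750 probe sets 4.21% were called lower and 4.83% higher in Saos-2. Each of these joint probe sets had a mean log2 signal of at least 6. At that level 29.2% of the probe sets with a single gene symbol were called lower and 25.9% higher, with p-values adjusted over that group (limma).

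The imprinted pair H19 and MEG3 did not pass the test between the lines. The first probe set of H19 and MIR675 read 4.96 with sh-circ_0000073 and 5.0 with sh-NC in Saos-2 cells, against 5.25 with sh-circ_0000073 and 4.68 with sh-NC in MG-63 cells. The second read 4.02 with sh-circ_0000073 and 4.37 with sh-NC in Saos-2 cells, against 4.12 with sh-circ_0000073 and 3.78 with sh-NC in MG-63 cells. The probe set of MEG3 and MIR770 read 5.44 with sh-circ_0000073 and 5.49 with sh-NC in Saos-2 cells, against 6.71 with sh-circ_0000073 and 5.63 with sh-NC in MG-63 cells. H19 overlapped between the lines on both probe sets. On the MEG3 probe set both Saos-2 arrays lay below both MG-63 arrays, by 0.14 at the nearest, with a difference of −0.705. Such an order held for 32.9% of all probe sets with a single gene symbol. The adjusted p values from limma were 0.986 and 0.694 for H19 and 0.342 for MEG3.

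With the hairpin, the DANCR and MIR4449 probe set was 2.53-fold higher in Saos-2 cells (1.34) and differed by 0.45 in MG-63 cells. The GAS5 probe set was past 1.5-fold in both lines, with changes of 0.80 in Saos-2 cells and 0.61 in MG-63 cells. The MG-63 change was only just past it, at 1.53-fold, and the shared probe sets were not rerun with other scalings. PVT1 with MIR1204 showed −0.04 in Saos-2 cells and 0.76 in MG-63 cells, and MEG3 with MIR770 showed −0.05 in Saos-2 cells and 1.08 in MG-63 cells, while NEAT1 with MIR612 stayed within 1.5-fold in both lines (0.38 and 0.18). Past 1.5-fold were thus 2 of the 7 in Saos-2, all higher, and 3 of the 7 in MG-63, all higher, against 6.57% and 7.8% of all probe sets higher. Among probe sets with 1 symbol and a mean log2 signal of at least 6 these shares were 15.7% and 14.0%. In limma over both lines the GAS5 probe set had a mean change of 0.705 (SE 0.152, unadjusted p = 0.00444, adjusted p = 0.913) and the DANCR probe set one of 0.895 (SE 0.288, unadjusted p = 0.0235, adjusted p = 0.913), so neither passed the adjusted threshold.

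**Figure D3:**
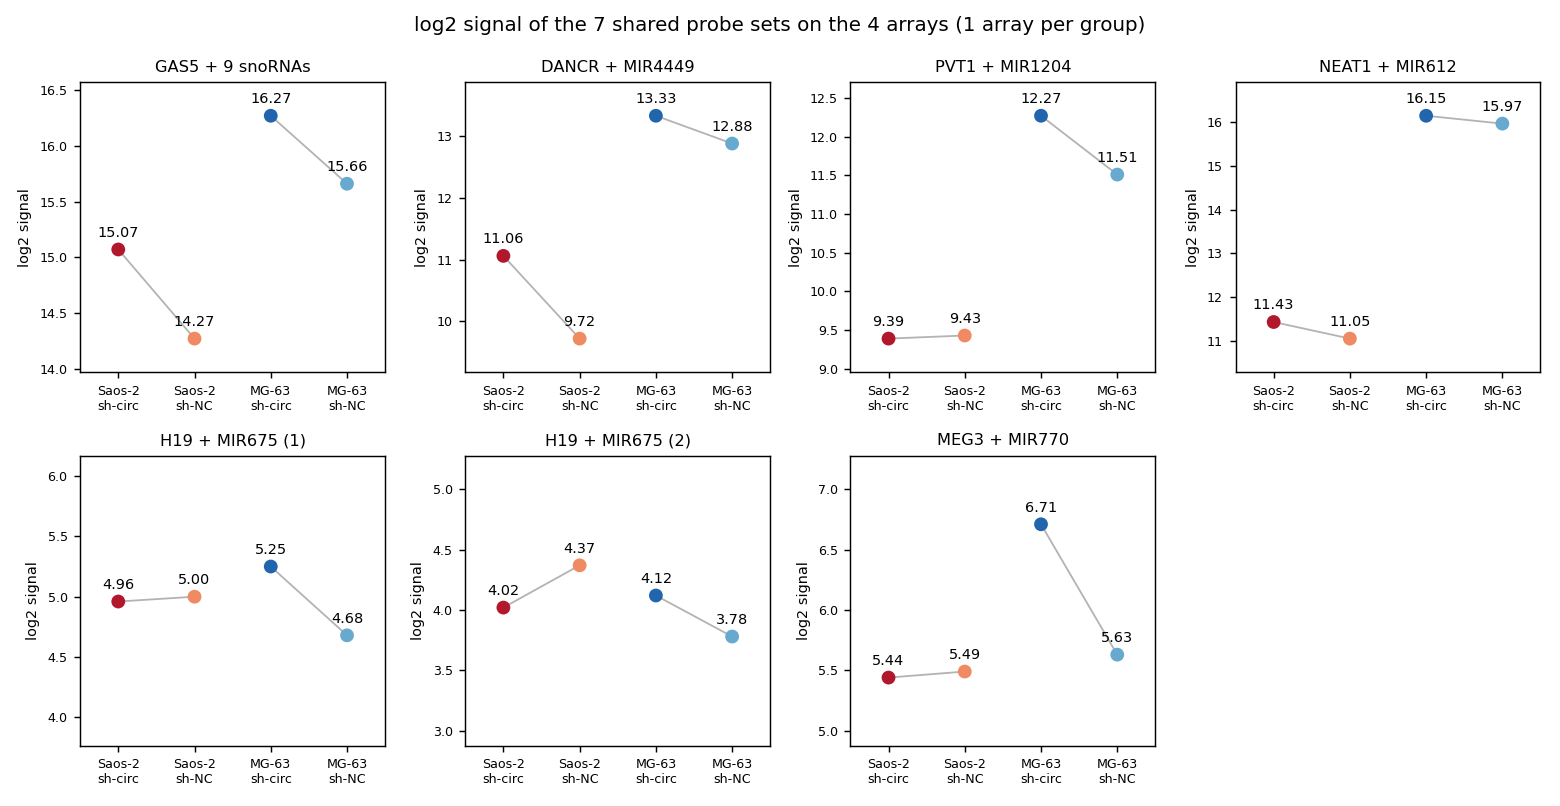
Log2 signal (vertical axis) of the 7 probe sets annotated to a long noncoding RNA together with other genes, on each array, with sh-circ_0000073 left of sh-NC and Saos-2 left of MG-63. NEAT1 with MIR612 shows the widest line difference (−4.82), and both H19 probe sets overlap between the lines.

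The gene lists that follow are described by their counts, to be read against the shares of all probe sets with 1 symbol. Between the lines these were 11.9% higher and 13.7% lower in Saos-2, or 25.9% and 29.2% at a mean log2 signal of at least 6. Of 15 paraspeckle proteins measured, of 18 listed, 7 were called higher and 2 lower in Saos-2 (limma). SFPQ, a core paraspeckle protein, read 15.61 and 15.66 in Saos-2 cells against 13.15 and 13.24 in MG-63 cells, and its partner PSPC1 read 13.61 and 14.20 against 10.72 and 10.93. Of 12 speckle and RNA processing factors measured, of 14 listed, 8 were higher and 1 lower in Saos-2, the lower one being the speckle scaffold SRRM2 (−0.96, adjusted p = 0.0108, limma). The speckle protein PNN was 6.11-fold higher in Saos-2, the splicing factor SRSF7 5.60-fold, and ELAC2, the nuclease that finishes the small tRNA-like RNA released from MALAT1, 4.63-fold, all passing limma. The median line difference was 0.425 for the paraspeckle list and 1.27 for the speckle list, against −0.05 over all. With the hairpin 2 paraspeckle genes were higher and 1 lower in Saos-2 cells and 3 were higher in MG-63 cells past 1.5-fold, SMARCA4 being higher in both (0.81 and 0.86), and no speckle gene was past 1.5-fold in either line. The 2 higher in Saos-2 cells became 1 with arrays centered on their medians and with quantile normalization. For the hairpin the shares of all probe sets with 1 symbol were 8.91% higher and 5.22% lower in Saos-2 cells and 8.93% higher and 7.18% lower in MG-63 cells, or 15.7%, 8.45%, 14.0% and 11.4% at a mean log2 signal of at least 6.

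Among the genes around and below HOTAIR, 3 of 6 measured HOXC genes (of 9 listed) were called lower in Saos-2 and 0 higher, against 13.7% and 11.9% of all probe sets with 1 symbol. These were HOXC10 at 9.04 and 8.24 in Saos-2 cells against 10.75 and 10.58 in MG-63 cells, HOXC11 at 3.80 and 3.57 against 4.58 and 5.28, and HOXC13 at 3.59 and 3.39 against 6.23 and 6.54, the Saos-2 signals of HOXC11 and HOXC13 being near the array medians. With the hairpin HOXC10 was 1.74-fold higher in Saos-2 cells, and HOXC8 and HOXC11 were 1.88-fold and 1.63-fold lower in MG-63 cells. Of 15 PRC2 and LSD1 complex genes (of 16 listed), 9 were called higher and 3 lower in Saos-2, against 25.9% and 29.2% of all probe sets with 1 symbol at a mean log2 signal of at least 6. EZH2, the histone methyltransferase of PRC2, read 11.73 and 11.47 in Saos-2 cells against 8.27 and 8.58 in MG-63 cells, and the PRC2 cofactor JARID2 read 12.36 and 10.53 against 4.38 and 4.62. EZH1, the paralog of EZH2, was 4.20-fold lower in Saos-2 (adjusted p = 0.00143, limma). Past 1.5-fold with the hairpin were 3 of 15 higher in Saos-2 cells and 3 higher and 3 lower in MG-63 cells, against shares of 15.7%, 14.0% and 11.4% at a mean log2 signal of at least 6. HDAC1, a deacetylase of the LSD1 complex, was higher in both lines (0.79 in Saos-2 cells and 0.93 in MG-63 cells). In the same list HDAC2 (−0.25 and −0.25) and RCOR1 (−0.41 and −0.74) were lower in both, so the complex did not move as 1.

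**Figure D4:**
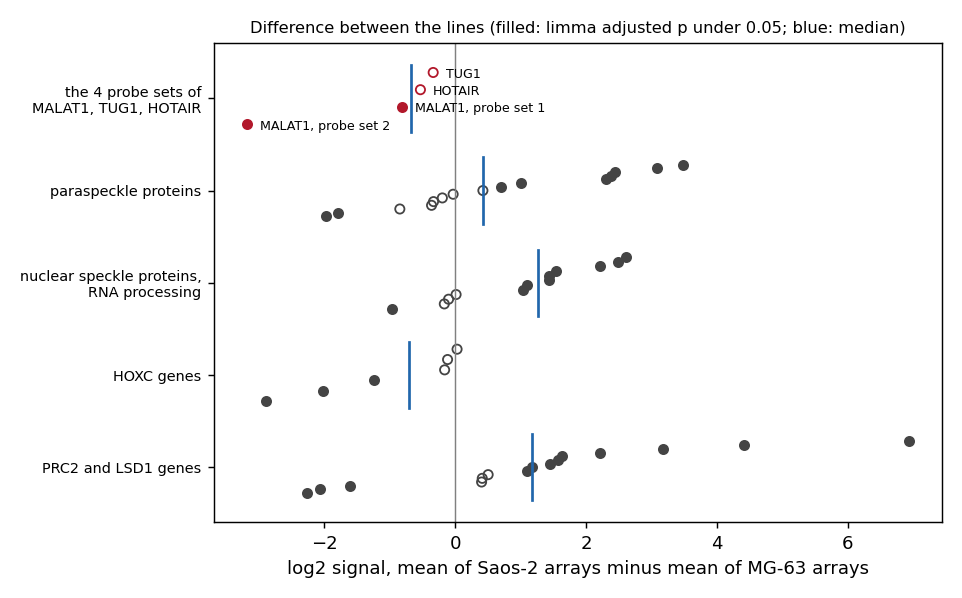
Saos-2 minus MG-63 difference in log2 signal (horizontal axis) for the 4 probe sets of MALAT1, HOTAIR and TUG1 and for 4 gene lists; each point is a probe set, filled where limma gave an adjusted p under 0.05, and blue lines are medians. Both MALAT1 points lie left of 0, while 9 PRC2 and LSD1 genes and 8 speckle genes are filled to the right of it.

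Of 5 measured genes of the PVT1 locus (of 6 listed), 2 were lower in Saos-2, one being MYC at 12.54 and 11.86 in Saos-2 cells against 16.07 and 14.32 in MG-63 cells, and with sh-circ_0000073 MYC differed by 0.68 in Saos-2 cells and by 1.75 in MG-63 cells. NR3C1, the glucocorticoid receptor that GAS5 can occupy, read 10.38 and 10.21 in Saos-2 cells against 15.51 and 14.71 in MG-63 cells (28.1-fold lower in Saos-2, adjusted p = 1.34e-05, limma). None of the 10 listed small nucleolar RNAs of GAS5 had a usable probe set of its own, and of 7 nonsense-mediated decay genes (of 10 listed), the pathway that degrades spliced GAS5, 1 was called lower in Saos-2 (UPF2, 5.24-fold). Of 6 measured genes (of 9 listed) of the wider imprinted region around H19 and its regulators, 1 was higher in Saos-2 and 1 lower. The higher was CTCF, the insulator protein that binds the H19 domain and is encoded elsewhere, and the lower was PHLDA2, a gene of the wider region. In the MEG3 domain 1 of 6 (of 7 listed) was called lower, MEG8 (adjusted p = 0.0498, limma), at 2.94 and 2.89 in Saos-2 cells against 3.27 and 3.89 in MG-63 cells, where it can hardly be told from an undetected RNA. Of 5 genes next to DANCR, TUG1 or MALAT1 (of 7 listed), 2 were lower in Saos-2: LTBP3, beside MALAT1, and SNORA26, a small nucleolar RNA hosted by DANCR, which read 7.34 and 6.92 in Saos-2 cells against 8.88 and 8.71 in MG-63 cells. With the hairpin LTBP3 was 2.58-fold higher in Saos-2 cells and 2.19-fold lower in MG-63 cells, and MORC2, the neighbor of TUG1, was 1.58-fold higher in Saos-2 cells.

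Of 22 other named long noncoding RNAs (of 26 listed), 2 were called higher and 6 lower in Saos-2, against 11.9% and 13.7% of all probe sets with 1 symbol and 25.9% and 29.2% of those at a mean log2 signal of at least 6, with a median line difference of −0.035. FENDRR read 2.83 and 2.88 in Saos-2 cells against 11.46 and 12.63 in MG-63 cells, and CDKN2B-AS1, the antisense RNA of the CDKN2B locus, read 8.51 and 8.64 in Saos-2 cells against 3.88 and 4.95 in MG-63 cells (adjusted p = 8.55e-05, limma), the lower MG-63 signal being near the array median. With the hairpin 1 was higher and 2 lower in Saos-2 cells, against 8.91% and 5.22% of all, and 3 were higher and 3 lower in MG-63 cells, against 8.93% and 7.18%. The 1 higher in Saos-2 cells became 0 with arrays centered on their medians and with quantile normalization. NORAD, which holds Pumilio proteins, was lower in both lines (−0.67 for Saos-2 cells, −1.27 for MG-63 cells). Limma called 0 genes of any of these lists for the hairpin over both lines.

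The genes whose 4 signals, each centered on its own mean, lay closest to those of MALAT1 probe set 1 were MTRFR and UBXN6, at distances of 0.03 and 0.044 in log2 units over 11539 genes. MTRFR read 10.01 and 9.92 in Saos-2 cells against 10.79 and 10.76 in MG-63 cells. Those closest to TUG1 were COPS8 and ZNF268, at 0.051 and 0.073, and COPS8 read 15.17 with sh-circ_0000073 and 14.27 with sh-NC in Saos-2 cells, against 14.97 with sh-circ_0000073 and 15.20 with sh-NC in MG-63 cells. Within a distance of 0.5 lay 1233 genes for MALAT1 and 438 for TUG1, so with 4 arrays such likeness is common.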

How the data were processed

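Total RNA of 4 transfected cultures was extracted with TRIzol, prepared with a GeneChip WT Pico Reagent Kit and hybridized to 1 array each. The deposited values are log2 signals per probe set, for which the submitters' processing notes give Affymetrix Expression Console as the authors' software. Its version and settings were not given in the sources used here, nor was a detection call, so only the number of arrays is known to limit precision.

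Groups were taken from the sample labels. Of 135750 probe sets, 36176 had 1 gene symbol in the platform annotation, 1119 several and 98455 none here. Updating symbols changed 623 names and left 4 probe sets of the 9 long noncoding RNAs. A change is sh-circ_0000073 minus sh-NC within a line, counted past 1.5-fold without a test. The hairpin and line effects came from 1 model in limma 3.58.1 (R 4.3.3) that held both as terms and let the variance follow the mean, and p-values were adjusted by Benjamini-Hochberg, at 0.05, over all probe sets with 1 symbol. Shared probe sets were read from the same fit over all 135750. Python 3.11.15, numpy 2.4.6 and pandas 2.3.3 served for the rest. On simulated arrays of 36176 probe sets, the hairpin fit called 100 of 100 with a log2 change of 2, 100 of 100 with 4 and 55 of 35976 unchanged. The 55 false calls were more than an adjusted p of 0.05 should allow beside the true ones. The changes were given only at a mean log2 signal of at least 6, alike in both lines, with noise from the fitted spread. Smaller or opposite changes, such as those of the 4 probe sets, were not simulated. Calls of the line effect, which comes from the same model, were not checked in this way.

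All probe sets of the 9 RNAs were named. From each list of partner, neighbor or hosted genes, up to 4 genes with the largest hairpin change and up to 3 with the largest line difference could be named, with 1 probe set a gene (the highest mean). Any other gene was singled out with its values in view. The 2 nearest patterns were taken among genes with a mean log2 signal of at least 6. Members and lists were chosen with earlier results of these data known. The separate account of shared probe sets, the requirement of a gene identifier for small RNAs in the lists, and the start regions and motifs were chosen after the data had been seen. The alternatives were other scalings, folds, filters, probe set rules, variance priors, terms and arrays left out.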

Additional observations from a re-analysis of the deposited data

Results flagged for a closer look

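Several changes with sh-circ_0000073 had opposite signs in the lines and differed by over 1.5-fold. None of these differences could be tested, because 4 arrays leave 0 residual degrees of freedom for it, and the size that singles them out was set after the data had been seen. TUG1 was higher in Saos-2 cells (0.93) and lower in MG-63 cells (−0.18), so its Saos-2 change minus its MG-63 change was 1.11. For HOTAIR that difference was 0.94, at signals near the array medians. Among the shared probe sets it was −0.80 for PVT1 with MIR1204, −1.13 for MEG3 with MIR770, and −0.61 and −0.69 for the probe sets of H19 with MIR675. The Saos-2 changes of PVT1 (−0.04), MEG3 (−0.05) and the first H19 probe set (−0.04) were close to none, so their opposite signs mean little. LTBP3, a binding protein of latent TGF-beta encoded beside MALAT1, had the largest among the genes of the lists, 2.50. LTBP3 read 6.06 with sh-circ_0000073 and 4.69 with sh-NC in Saos-2 cells, and 8.86 with sh-circ_0000073 and 9.99 with sh-NC in MG-63 cells. Genes of the lists were flagged only where both changes were past 1.5-fold. That left out JARID2 (1.83 in Saos-2 cells, −0.24 in MG-63 cells) and HOXC8 (0.31 in Saos-2 cells, −0.91 in MG-63 cells).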

How the results depend on the processing

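The line difference of MALAT1 probe set 2 was called by limma in 11 of 11 alternatives (−3.31 to −2.94, adjusted p up to 0.0182) and that of probe set 1 in 9 of 11. Probe set 1 was −0.456 under quantile normalization, and leaving out 1 array gave −0.84 to −0.78, no longer called without the MG-63 sh-circ_0000073 array (−0.81, adjusted p = 0.0569) or the MG-63 sh-NC array (−0.81, adjusted p = 0.0572). Its hairpin change turned to −0.01 with arrays centered on their medians and −0.069 with quantile normalization. The TUG1 line difference ran from −0.80 to 0.13 with 1 array left out, the 0.13 being without Saos-2 sh-NC. With each line alone the hairpin value was 0.35 in Saos-2 and −0.59 in MG-63 for HOTAIR, and 0.93 in Saos-2 and −0.18 in MG-63 for TUG1. At 2-fold 0 probe sets were higher in Saos-2 and 0 lower in MG-63, and with a log2 signal of at least 6, which drops HOTAIR, 0 were lower in MG-63. Counting shared probe sets too, an alternative chosen after seeing the data, gave 3 higher in Saos-2 and 3 higher in MG-63. Hairpin calls over all probe sets, 0 in limma as reported, were 9 higher and 18 lower with quantile normalization, 9 and 11 with a log2 signal of at least 6, and 3 and 5 with a robust variance prior, but none of the 4 probe sets was among them. Line calls were 4312 higher and 4968 lower, with 6557 higher over all 135750 probe sets, and without Saos-2 sh-circ_0000073, Saos-2 sh-NC, MG-63 sh-circ_0000073 and MG-63 sh-NC in turn 2119, 2213, 1848 and 1894 higher and 2509, 2172, 2379 and 2455 lower. The list counts were rerun only with arrays centered on their medians and with quantile normalization, and 10 moved by over 1.5 times. For these the cause was not tested. No paired analysis was possible because the labels number no replicates, and the line was already a term of the fit. With 1 array per group, no spread within a group could be measured, and HOTAIR, H19 and MEG8 lay too near the array medians for a firm reading.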
